A study of Arabidopsis thaliana with 60 samples.

Results

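The genes described are 10 transporters of sucrose and hexoses in the stem of Arabidopsis thaliana, chosen by locus from the 37967 named loci of each count table: SWEET4, SWEET11, SWEET12, SWEET13, SWEET16, SWEET17, SUC1, SUC2, STP1 and STP13. RNA sequencing covered 5 groups of 3 samples, 15 in all. Trial 1 held a first set of wild type Col-0 plants (Col-0 set 1), HCT-RNAi, in which a construct silences the lignin enzyme HCT, and gpt2-1, labelled as a mutant of GPT2, which carries glucose phosphate into plastids. Trial 2 held a second set of Col-0 (set 2) and 35S GPT2, a line labelled as overexpressing GPT2 under the 35S promoter, which is active in most plant cells. The labels name no agent or allele that all groups share and do not say how many plants or independent transformants stand behind a sample. All stems came from plants grown in Noren medium at 0.5 times strength for 9 to 10 weeks. The study asked how GPT2 expression relates to lignin synthesis.

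Sucrose made in green tissue leaves the phloem parenchyma through SWEET proteins, which let sugars pass down their gradient, and SUC2 then pumps it with protons into the companion cells of the phloem. SWEET11 and SWEET12 are the pair known for this export step in leaves, and both are also active in the vascular tissue of the stem. SWEET16 and SWEET17 sit in the membrane of the vacuole, where SWEET17 is known for moving fructose. STP proteins take up hexoses that arise when sucrose is split outside the cell.

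Total counts per sample ran from 3827816 to 31713084, and the 3 shallowest libraries were all in trial 2. Levels are given as CPM, counts per 1000000 counts of the library after TMM scaling, which sets the libraries of a trial on a common scale. As a check of the labels, Col-0 set 1 held 1.32 ± 0.148 CPM of GPT2 (SD, n = 3), HCT-RNAi 8.09 ± 1.86 and the libraries labelled gpt2-1 127 ± 3.93, which goes against their label. Col-0 set 2 held 2.97 ± 3.33 CPM of GPT2 and 35S GPT2 265 ± 35.0 CPM, and HCT fell from 362 ± 23.8 to 143 ± 7.74 CPM in HCT-RNAi. In 5 of the 6 tables of trial 2 the order of the counts and that of the locus names did not match, and the counts were read in the row order of the first 35S GPT2 table. Replicate 1 of Col-0 set 2 stood apart from its group, with a mean Spearman correlation across genes of 0.946 with its fellow replicates, against 0.965 to 0.998 for the other 14 libraries. Replicates 2 and 3 of this set had 0.965 and 0.967 with their group, replicate 1 included. With the 35S GPT2 libraries they had 0.966 and 0.972, so the set was loose as a whole. All 6 phloem markers and all 5 markers of xylem and fibre walls had counts in all 15 libraries. The seed storage gene AT2S3 was at 0 in 13 of 15 and reached 3 counts at most. Flower and pollen markers were not absent. The pollen marker VGD1 had 8 to 458 counts in all 15 libraries. The flower markers AP1, PI, AP3 and AG had counts in 13, 11, 10 and 9 libraries, with at most 58 counts.

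SWEET11 and SWEET12 are shown first as sequence, because they are the closest relatives among the members and moved apart in both GPT2 comparisons. Their coding sequences of 870 and 858 bases were identical at 704 of 852 aligned bases (82.6%), and the longest identical run was 29 bases. The first 120 coding bases differed at 16 positions, which stand in capitals below (RefSeq, TAIR10.1).
SWEET11: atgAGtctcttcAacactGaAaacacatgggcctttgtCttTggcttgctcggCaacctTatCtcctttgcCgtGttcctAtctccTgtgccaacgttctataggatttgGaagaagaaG
SWEET12: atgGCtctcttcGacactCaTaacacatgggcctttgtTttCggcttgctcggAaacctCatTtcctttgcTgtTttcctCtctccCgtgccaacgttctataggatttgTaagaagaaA
No stretch of 50 bases in the transcript of either gene recurred elsewhere in the genome on either strand. The same held for the other members except STP1, where 12 of 2434 such stretches had a second copy. The next most alike pairs were SWEET16 with SWEET17, at 78.8% of 689 aligned coding bases, and SUC1 with SUC2, at 76.5% of 1527.

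The 250 bases before the annotated start of SWEET11, SWEET12 and SWEET4 follow, read 5′ to 3′ on the gene's own minus strand (TAIR10.1). They are shown because SWEET11 had the largest fall in 35S GPT2 of the members tested there, and SWEET12 is its close relative. SWEET4 had the largest change of the members in each trial 1 line, in opposite directions. SWEET11, SWEET16, STP1 and STP13 also moved in opposite directions in these lines, by less. The capitals mark matches to 5 short motifs: the G-box CACGTG, the W-box core TTGAC, the evening element AAAATATCT and the TATCCA element, each on both strands, and the TATA box TATAAA on the gene's strand only.
SWEET11, chr3:18054833-18055082: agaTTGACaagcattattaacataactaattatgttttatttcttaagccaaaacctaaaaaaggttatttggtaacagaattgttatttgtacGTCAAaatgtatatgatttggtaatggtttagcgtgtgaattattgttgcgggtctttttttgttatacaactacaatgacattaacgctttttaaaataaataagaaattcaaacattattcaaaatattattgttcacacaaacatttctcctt
SWEET12, chr5:7973996-7974245: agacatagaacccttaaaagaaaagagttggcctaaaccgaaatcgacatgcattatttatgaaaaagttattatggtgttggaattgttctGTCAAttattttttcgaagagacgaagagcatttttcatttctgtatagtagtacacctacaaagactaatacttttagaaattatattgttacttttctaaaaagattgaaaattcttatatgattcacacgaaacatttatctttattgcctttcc
SWEET4, chr3:10409978-10410227: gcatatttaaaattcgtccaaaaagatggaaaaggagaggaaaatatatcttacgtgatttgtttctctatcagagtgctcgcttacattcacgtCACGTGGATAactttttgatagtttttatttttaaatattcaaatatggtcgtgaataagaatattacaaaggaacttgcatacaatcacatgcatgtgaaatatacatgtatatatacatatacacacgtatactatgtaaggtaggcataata
The SWEET11 and SWEET12 windows were identical at 145 of 226 aligned bases (64.2%). Each held the W-box core on the reverse strand (letters GTCAA), beginning 156 and 158 bases before the start. SWEET11 had a second core on its own strand (letters TTGAC), 247 bases before the start. Of 27443 promoters of protein-coding genes, 44.9% held the W-box core, so its presence in both is common. The SWEET4 window held a G-box 155 bases before the start, overlapping by 2 bases a TATCCA element on the reverse strand. A G-box was present in 6.49% and a TATCCA element in 13.6% of all promoters. Among the other members, SUC1 and SUC2 held a G-box, at 12 and 42 bases before the start, SWEET17 and STP1 held a TATCCA element, and SWEET13, SWEET17 and SUC1 held the TATA box, against 32.9% of all promoters. The evening element, in 2.36% of promoters, was in none of the 10 windows.

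Per length of exon, STP1 (AT1G11260, chromosome 1, 3777236 to 3780823, plus strand) had the highest level in Col-0 set 1, with 258 ± 32.1 CPM per kb (SD, n = 3). SUC2 (AT1G22710, chromosome 1, 8030587 to 8033156, minus strand) came next with 137 ± 10.9 CPM per kb, ahead of SUC1 (AT1G71880, chromosome 1, 27054030 to 27056464, plus strand) with 71.6 ± 1.75. SWEET17 (AT4G15920, chromosome 4, 9030486 to 9033648, minus strand) stood at 61.4 ± 1.97 CPM per kb. These 4 did not overlap between libraries. SWEET12 (AT5G23660, chromosome 5, 7971647 to 7973995, minus strand) and SWEET11 (AT3G48740, chromosome 3, 18052466 to 18054832, minus strand) overlapped at 49.1 ± 3.22 and 45.6 ± 1.82 CPM per kb. STP13 (AT5G26340, chromosome 5, 9243398 to 9247540, minus strand) followed with 34.9 ± 1.16. A group of low members lay more than 10 times below it: SWEET16 (AT3G16690, chromosome 3, 5684317 to 5686544, minus strand) with 2.65 ± 0.686 CPM per kb, and SWEET13 (AT5G50800, chromosome 5, 20665068 to 20667312, minus strand) with 1.28 ± 0.49. SWEET4 (AT3G28007, chromosome 3, 10408073 to 10409977, minus strand) had 0.926 ± 0.0793 CPM per kb and overlapped SWEET13. Each SWEET has 6 exons, except that SWEET16 is annotated with 5 or 6.

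The order was not the same in the second wild type set. In Col-0 set 2, SUC2 led with 163 ± 56.3 CPM per kb, ahead of STP1 with 97.4 ± 15.1, and no library of one overlapped the other. SWEET12 stood at 40.0 ± 2.33 and SWEET11 at 32.4 ± 4.12 CPM per kb, with SWEET17 at 21.9 ± 8.86 below both. SWEET4 and SWEET16 were lowest, at 0.29 ± 0.252 and 0.258 ± 0.224 CPM per kb. The trials were scaled separately and were not tested against each other.

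The lines changed the order mainly among the SWEET genes. In HCT-RNAi the 3 lowest members, SWEET4 at 2.12, SWEET16 at 2.00 and SWEET13 at 1.81 CPM per kb, overlapped. In the libraries labelled gpt2-1 SWEET11 at 55.9 CPM per kb stood above STP13 at 42.3 and SWEET12 at 37.0, whereas in Col-0 set 1 it had overlapped SWEET12. In 35S GPT2 SWEET11 stood at 8.18 ± 1.16 CPM per kb, below STP13 at 15.9 ± 1.24, with SWEET17, SWEET12 and SUC1 overlapping above them at 38.2, 31.3 and 28.8.

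**Figure D1:**
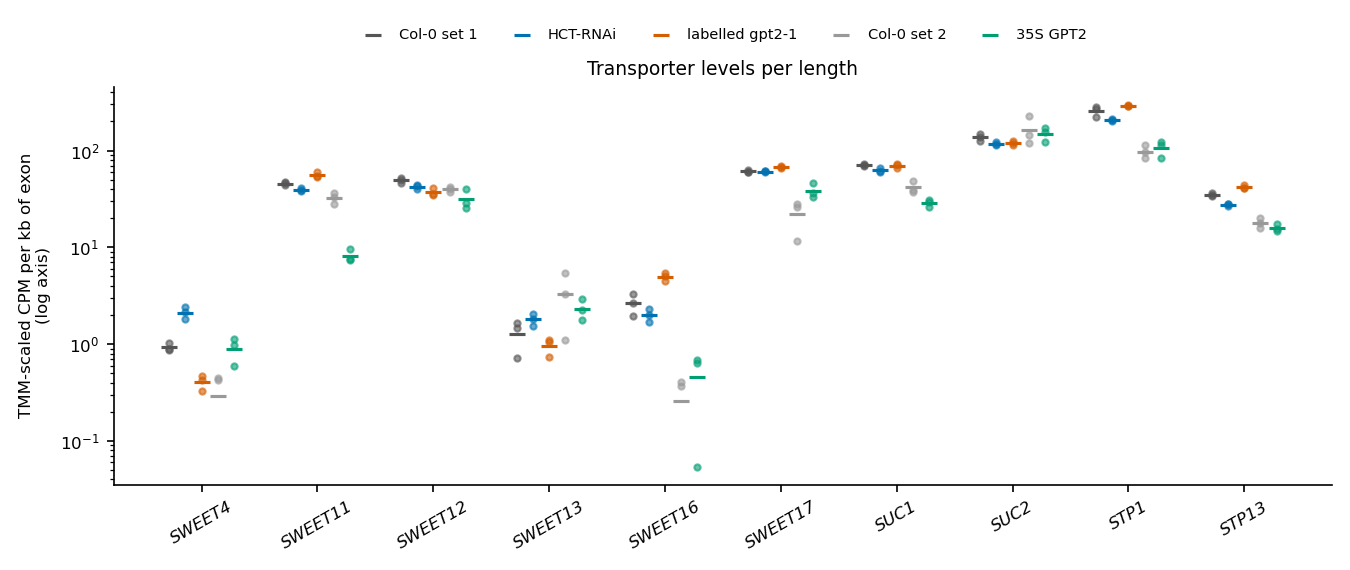
Level of each transporter per length (TMM-scaled CPM per kb of exon, log axis) in 5 groups; points are libraries, bars are means of 3, and libraries at 0 have no point. STP1 and SUC2 are the upper pair in every group, and SWEET4, SWEET13 and SWEET16 stay under 6 CPM per kb throughout.

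HCT-RNAi was compared with Col-0 set 1 to see which transporters change when a lignin enzyme is silenced. Of the 10 members, 7 fell, 1 rose and 2 did not pass the test (edgeR quasi-likelihood F test, adjusted p under 0.05). The falls were small, at most 1.33-fold, and the median log2 fold change of the members was -0.21 against 0.0011 over all genes tested. Over all 20053 genes tested, 26.5% fell and 29.2% rose, so a call alone is common in this comparison. The libraries labelled gpt2-1 share the Col-0 set 1 controls with HCT-RNAi, so the values of both lines are not independent. In bulk tissue, fewer cells of a type and less RNA per cell cannot be told apart.

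The sucrose symporters of HCT-RNAi were lower in every library than in Col-0 set 1. SUC2, which loads sucrose into the phloem, held 281, 304 and 259 CPM in Col-0 set 1 and 252, 235 and 238 CPM in HCT-RNAi. Its log2 fold change was -0.22 (SE 0.05, edgeR adjusted p = 0.000419). SUC1, a symporter known from roots and pollen as well, held 158, 162 and 154 CPM against 136, 131 and 145 CPM, a change of -0.20 on the log2 scale (SE 0.05, edgeR adjusted p = 0.000471).

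The export pair SWEET11 and SWEET12 fell by similar amounts. SWEET11 held 63.8, 65.4 and 60.4 CPM in Col-0 set 1 and 56.4, 53.5 and 54.2 CPM in HCT-RNAi (log2 fold change -0.21, SE 0.05, edgeR adjusted p = 0.000901). SWEET12 held 66.2, 70.3 and 61.7 CPM against 58.0, 53.4 and 59.9 CPM (-0.21, SE 0.06, edgeR adjusted p = 0.00252). Neither pair of groups overlapped. For HCT-RNAi the 6 phloem markers summed to 429 to 448 CPM, against 462 to 478 CPM for the controls. Of these, 1 rose, AHA3 (0.12), and 2 fell, PP2-A1 (-0.18) and FTIP1 (-0.62). Their median log2 fold change was 0.0075, so the lower sum was not a general fall of these markers. PP2-A1 made up most of the sum, with a mean of 256 against 291 CPM. Exons on the opposite strand cover 18.8% of its exon bases, and their part was not tested. Of the 5 markers of xylem and fibre walls 4 fell and 1 rose, with a sum of 2767 to 2964 CPM against 3222 to 3537 CPM. Both epidermis markers fell, FDH (-0.74) and CER6 (-0.69), with a sum of 555 to 565 CPM against 892 to 930 CPM. Both markers of green cortex rose, RBCS1A (0.38) and CAB1 (0.36). Of the 3 flower markers tested, AP3 rose (2.29, edgeR adjusted p = 0.000397), from 0 to 7 raw counts to 14 to 20. The part of these tissues in the changes of the members was not tested.

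Among the hexose symporters, STP13 had the smallest p of the falls. This high-affinity transporter, known for hexose uptake under stress and infection, held 87.7, 93.5 and 89.1 CPM in Col-0 set 1 and 68.9, 72.1 and 72.9 CPM in HCT-RNAi. The log2 fold change was -0.34 (SE 0.05, edgeR adjusted p = 2.93e-07). STP1, the most abundant member per length, held 661, 706 and 551 CPM against 524, 506 and 512 CPM, a change of -0.32 (SE 0.06, edgeR adjusted p = 2.59e-05). Of the exon bases of STP1, 12.6% lie under exons of AT1G11270 on the opposite strand, and no other member has such an overlap. Genes with at least 50 percent of their exon bases so placed had a median log2 difference of 3.31 between HCT-RNAi and Col-0 set 1. Those with 10 to 15 percent had 0.08, and those with none had -0.044. In the libraries labelled gpt2-1, against the same controls, these medians were 0, -0.033 and -0.0042. In 35S GPT2, against Col-0 set 2, they were 0.02, 0.039 and 0.012. Genes with at least 50 percent thus stood lower in Col-0 set 1 and the libraries labelled gpt2-1 than in HCT-RNAi. The part of this overlap in the value of STP1 was not tested.

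SWEET4, a transporter of glucose and fructose in the plasma membrane, was the member that rose. It held 1.12, 1.11 and 1.29 CPM in Col-0 set 1 and 2.31, 2.73 and 3.04 CPM in HCT-RNAi, from 23 to 28 and 63 to 80 raw counts. The groups did not overlap, and the rise was 2.30-fold (log2 fold change 1.20, SE 0.20, edgeR adjusted p = 1.2e-05). SWEET13, a sucrose transporter known with SWEET14 from anthers, held 1.87, 0.914 and 2.08 CPM against 2.31, 1.94 and 2.62 CPM, and the groups overlapped. Its log2 fold change of 0.54 (SE 0.23) missed the threshold (edgeR adjusted p = 0.0507, 0.015 to 0.405 over the alternatives). Without Col-0 set 1 replicate 1 or 3, or HCT-RNAi replicate 2, it passed, at 0.64 to 0.73, and without Col-0 set 1 replicate 2 it was 0.23. It also passed with no filter on low counts (0.54) and on genes without opposite-strand overlap (0.58).

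The vacuolar members differed from each other. SWEET17 held 81.8, 78.1 and 77.0 CPM in Col-0 set 1 and 78.1, 78.3 and 77.0 CPM in HCT-RNAi, a log2 fold change of -0.023 with a 95% interval of -0.11 to 0.066. SWEET16 held 3.04, 5.17 and 4.16 CPM against 3.12, 3.59 and 2.62 CPM, with overlapping groups, and passed narrowly (-0.41, SE 0.17, edgeR adjusted p = 0.038). The call on SWEET16 was lost without Col-0 set 1 replicate 2 (-0.19) or replicate 3 (-0.41), without HCT-RNAi replicate 1 (-0.42) or replicate 3 (-0.30). It was also lost in DESeq2 (-0.42), in a fit of only the 2 groups (-0.41) and on genes without opposite-strand overlap (-0.38).

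**Figure D2:**
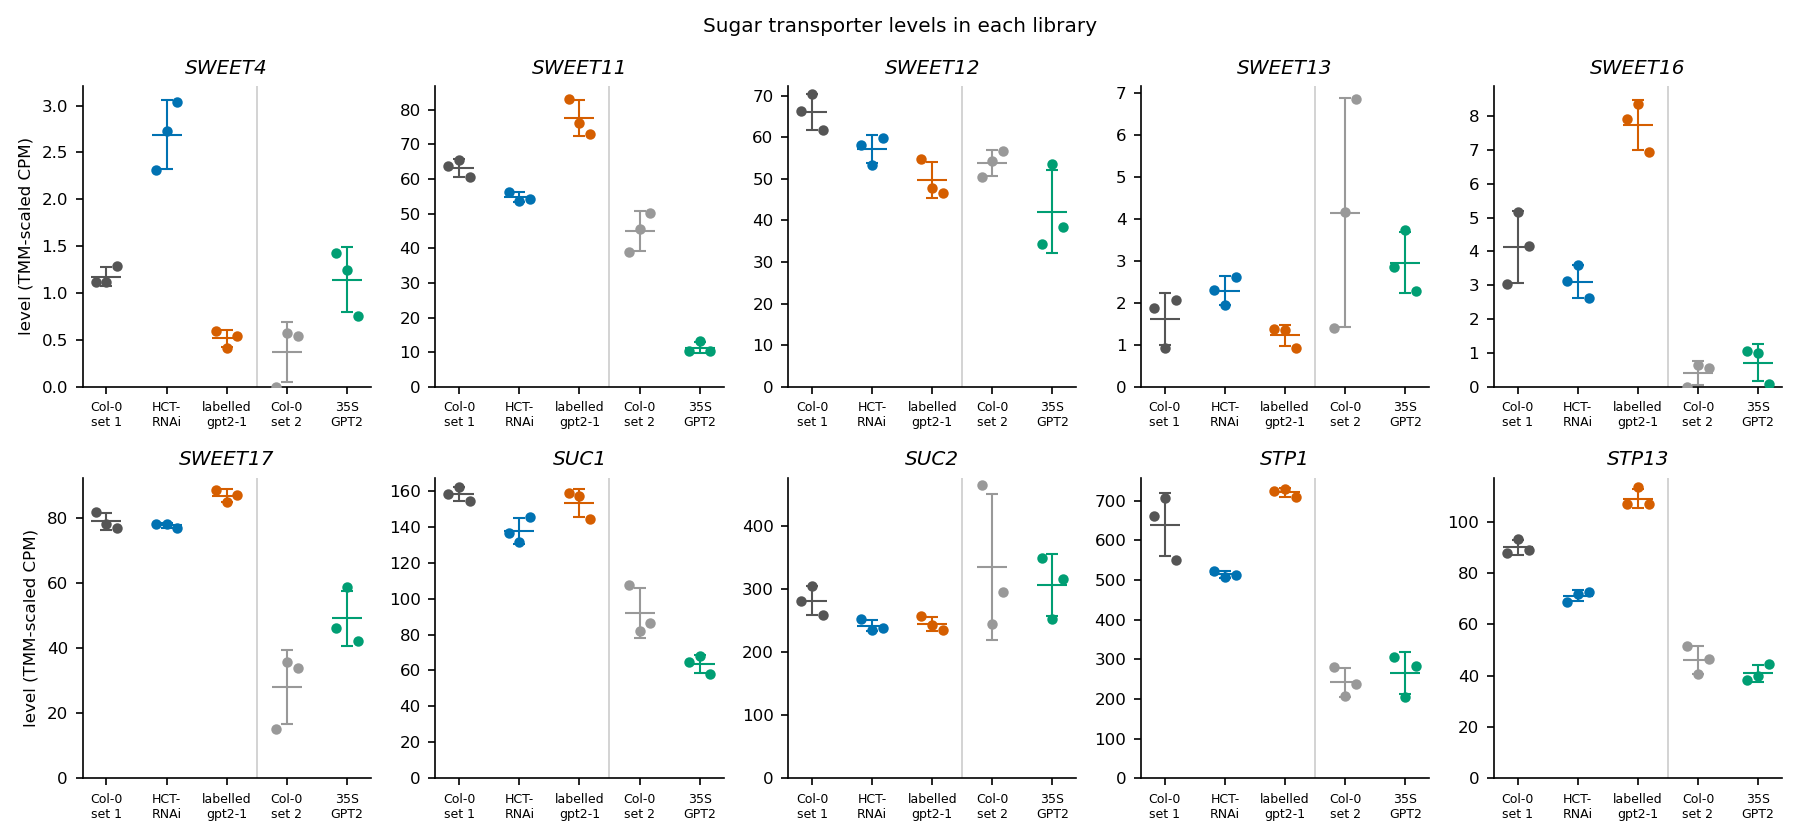
Level of each transporter (TMM-scaled CPM) in every library of 5 groups, with the mean and SD of 3 libraries; a grey line parts the trials, which were scaled separately. SWEET11 in 35S GPT2 lies between 10.4 and 13.2 CPM, below the 38.9 to 50.3 CPM of Col-0 set 2.

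In the libraries labelled gpt2-1, 5 members rose, 3 fell and 2 did not pass, against 27.4% of all genes that rose and 25.8% that fell. The direction of small changes depended here on the scaling. With library totals alone the median of all genes moved from -0.0059 to -0.23 on the log2 scale, and of all calls 24.7% were rises in place of 51.5%. Then 1 member rose and 4 fell.

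SWEET16 rose most, under each of the 3 scalings tried. It held 7.91, 8.36 and 6.92 CPM in the libraries labelled gpt2-1, above the 3.04 to 5.17 CPM of Col-0 set 1. The rise was 1.87-fold (log2 fold change 0.90, SE 0.15, edgeR adjusted p = 9.4e-06; 0.68 to 1.12 over the alternatives, each past the threshold). SWEET17, its vacuolar relative, held 88.7, 85.0 and 87.1 CPM against 77.0 to 81.8 CPM, a rise of 0.14 (SE 0.04, edgeR adjusted p = 0.00924) that turned to -0.088 with library totals alone. Within each library, which no scaling affects, counts per exon base of SWEET16 were 0.0739, 0.0815 and 0.0659 of those of SWEET17, against 0.0307, 0.0548 and 0.0447 in Col-0 set 1. These ratios did not overlap (two-sided exact permutation test, p = 0.1, the smallest that 3 against 3 allows).

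SWEET4 fell where it had risen in HCT-RNAi. It held 0.594, 0.415 and 0.54 CPM in the libraries labelled gpt2-1, from 8 to 12 raw counts, below every library of Col-0 set 1 (2.24-fold lower, log2 fold change -1.16, SE 0.30, edgeR adjusted p = 0.00155). The direct difference between HCT-RNAi and the libraries labelled gpt2-1 came to 2.36 (edgeR adjusted p = 2.09e-09, SE 0.25). SWEET13 held 1.38, 1.35 and 0.933 CPM and overlapped Col-0 set 1 (log2 fold change -0.37, SE 0.28, edgeR adjusted p = 0.273). It passed, at -0.69, once replicate 2 of Col-0 set 1 was left out.

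SWEET11 and SWEET12 parted in these libraries. SWEET12 held 54.7, 47.9 and 46.7 CPM, below the 61.7 to 70.3 CPM of Col-0 set 1 (1.33-fold lower, log2 fold change -0.41, SE 0.06, edgeR adjusted p = 1.18e-06). SWEET11 held 83.1, 76.2 and 73.1 CPM, above the 60.4 to 65.4 CPM of Col-0 set 1 (0.29, SE 0.05, edgeR adjusted p = 1.72e-05), and was 0.067 with library totals alone, no longer past the threshold. The ratio of their counts per exon base was 1.48, 1.55 and 1.52 in the libraries labelled gpt2-1. In Col-0 set 1 it was 0.935, 0.902 and 0.951, so the mean ratio was 1.63-fold higher, with no overlap (two-sided exact permutation test, p = 0.1, the smallest possible). In HCT-RNAi the ratio was 0.942, 0.973 and 0.879 and overlapped Col-0 set 1 (two-sided exact permutation test, p = 1).

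Phloem loading and hexose uptake genes changed by less. SUC2 held 257, 243 and 234 CPM, against 259 to 304 CPM in Col-0 set 1 (log2 fold change -0.20, SE 0.05, edgeR adjusted p = 0.00109; -0.43 with library totals alone), while SUC1 held 159, 157 and 144 CPM and did not pass (-0.048, 95% interval -0.14 to 0.047), but fell by 0.27 and passed with library totals alone. Of the 6 phloem markers 4 fell and none rose, and their summed level was 419 to 436 CPM against 462 to 478 CPM. All 5 markers of xylem and fibre walls fell too, with a sum of 2666 to 2837 CPM against 3222 to 3537 CPM. So did both epidermis markers, CER6 (-0.92) and FDH (-0.39), and 1 of the 2 markers of green cortex, CAB1 (-0.15). Of the 3 flower markers tested, PI rose (0.93, edgeR adjusted p = 0.00227). The part of these tissues in the changes of the members was not tested. STP13 held 107, 114 and 107 CPM against 87.7 to 93.5 CPM (0.28, SE 0.04, edgeR adjusted p = 6.58e-06), and with library totals alone it was 0.05 and did not pass. STP1 held 724, 730.4 and 708 CPM against 551 to 706 CPM (0.17, SE 0.06, edgeR adjusted p = 0.0117). It turned to -0.053 with library totals alone, and fell short of the threshold without Col-0 set 1 replicate 3 (0.074).

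Tested directly, HCT-RNAi lay above the libraries labelled gpt2-1 in 3 members and below them in 6, against 35.3% and 32.8% of all genes. The higher ones were SWEET4, SWEET13 (0.91, SE 0.25, edgeR adjusted p = 0.00227) and SWEET12 (0.20, SE 0.06, edgeR adjusted p = 0.0044). SWEET16 was lower by 2.49-fold (-1.32, SE 0.15, edgeR adjusted p = 1.53e-08), STP13 by 1.53-fold (-0.61, SE 0.04, edgeR adjusted p = 1.08e-12) and SWEET11 by 1.42-fold (-0.50, SE 0.05, edgeR adjusted p = 9.15e-10). STP1 (-0.49), SWEET17 (-0.16) and SUC1 (-0.15) also passed, though the last pair turned to 0.054 and 0.06 and did not pass with library totals alone. The part of the opposite-strand overlap of STP1 (12.6% of its exon bases) in its difference was not tested. SUC2 did not differ beyond its error (-0.017, 95% interval -0.12 to 0.085), but with library totals alone it was 0.20 and passed.

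**Figure D3:**
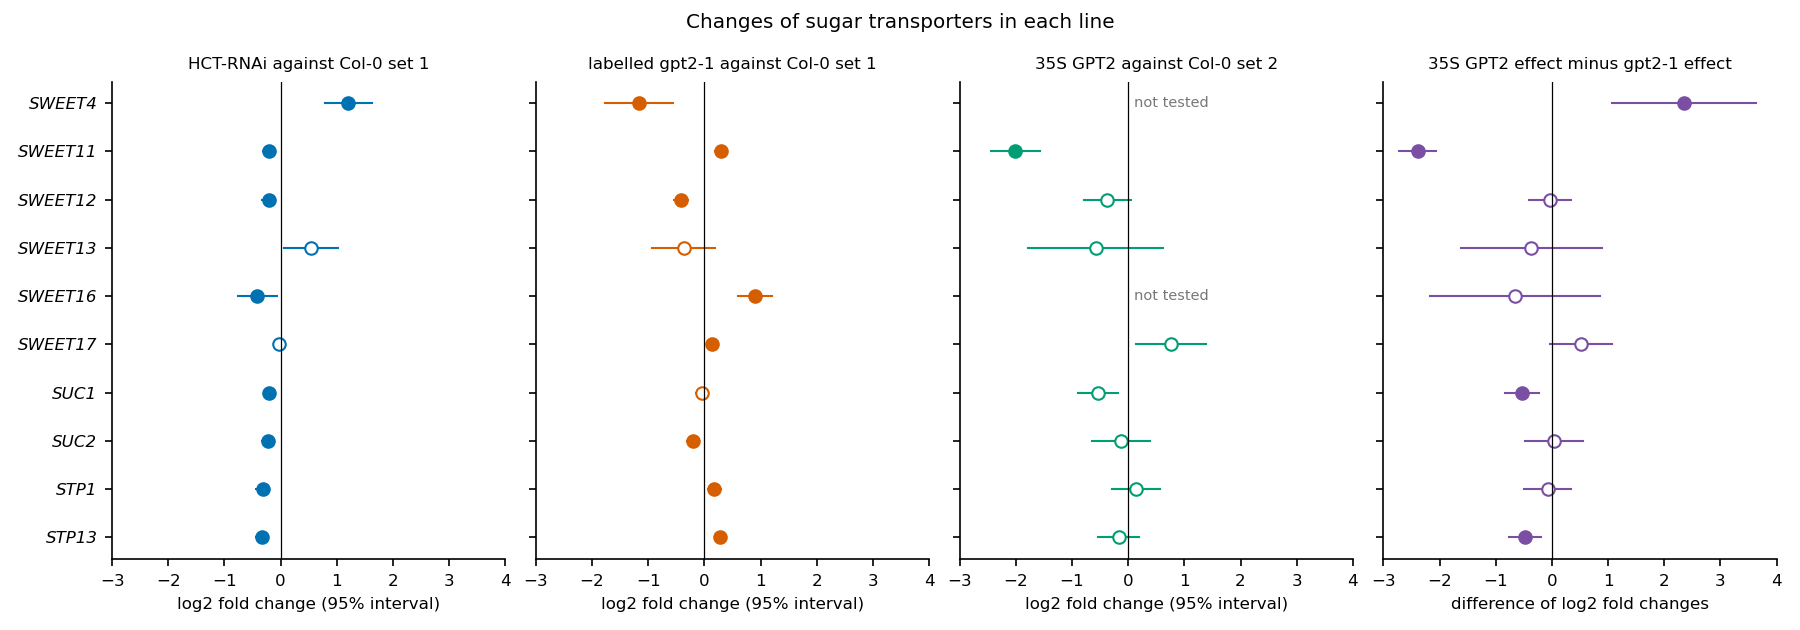
Log2 fold change of each transporter with its 95% interval in 3 comparisons, and the difference between the 35S GPT2 and gpt2-1 effects; filled points passed the test (edgeR, adjusted p under 0.05). SWEET11 stands out in 35S GPT2 at -2.01, while its values in the trial 1 lines are -0.21 and 0.29.

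In 35S GPT2, against Col-0 set 2, SWEET11 was the only member that passed the test, which did not pair the samples. Errors were larger here than in trial 1: the SE of SUC1 was 0.162, against 0.046 in each trial 1 line. Changes of the size that passed in trial 1 could thus be missed here. It held 10.4, 13.2 and 10.4 CPM, against 38.9, 45.6 and 50.3 CPM in Col-0 set 2, from raw counts of 117, 53 and 123 against 194, 721 and 1592. The groups were far apart, and SWEET11 was 4.03-fold lower (log2 fold change -2.01, SE 0.20, 95% interval -2.45 to -1.57, edgeR adjusted p = 0.000842). Of the 8 members tested, 1 fell and none rose, where 1.11% of the 18364 genes tested fell and 1.4% rose. Among those genes, 0.599% had a log2 fold change as low as that of SWEET11. Without replicate 1 of Col-0 set 2, which stood apart, the change was -2.12 (edgeR adjusted p = 0.000154), and leaving out each library in turn gave -2.12 to -1.92.

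SWEET12 did not pass. It held 34.5, 53.5 and 38.5 CPM in 35S GPT2 and 50.5, 54.3 and 56.7 CPM in Col-0 set 2 (log2 fold change -0.37, 95% interval -0.79 to 0.046, edgeR adjusted p = 0.439). Within each library, SWEET11 counts per exon base were 0.294, 0.239 and 0.262 of those of SWEET12 in 35S GPT2, against 0.747, 0.815 and 0.86 in Col-0 set 2. The mean ratio was 3.05-fold lower and the groups did not overlap (two-sided exact permutation test, p = 0.1, the smallest possible). The SWEET11 to SWEET12 ratio thus lay below the wild type in 35S GPT2 and above it in the libraries labelled gpt2-1.

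**Figure D4:**
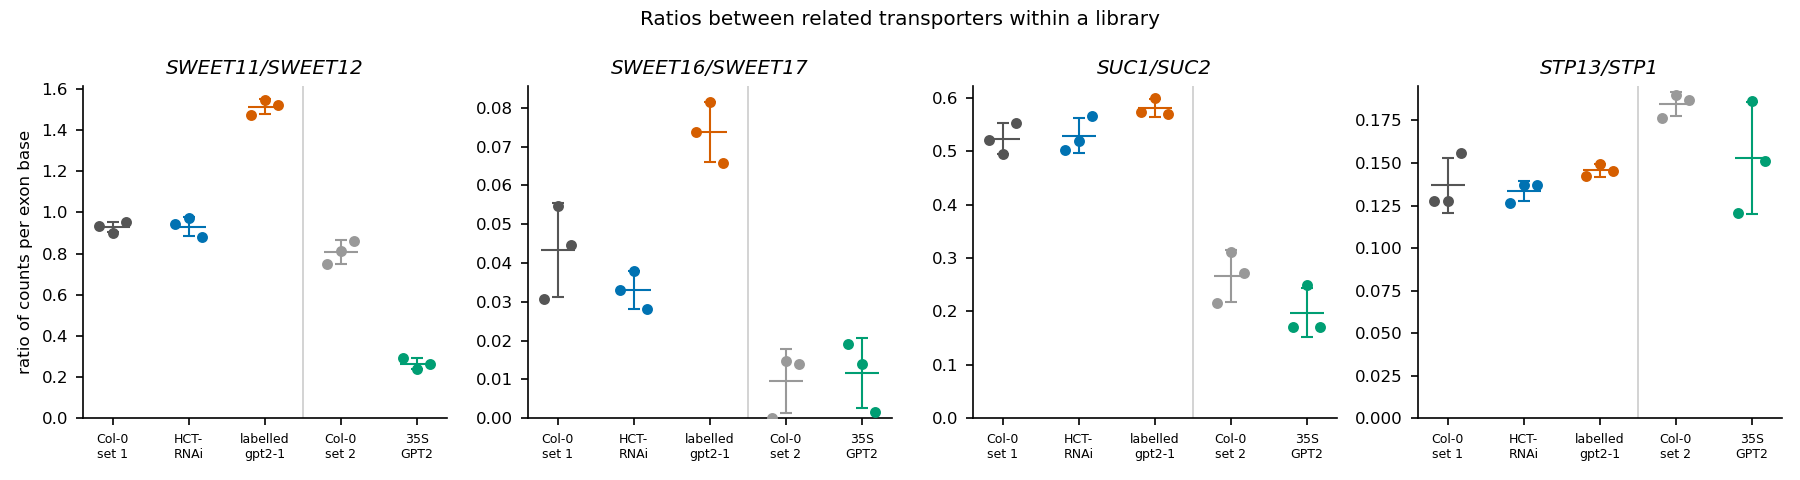
Ratio of counts per exon base between related transporters within each library, with the mean and SD of 3 libraries. The SWEET11 to SWEET12 ratio is 1.48 to 1.55 in the libraries labelled gpt2-1 and 0.239 to 0.294 in 35S GPT2, while both wild type sets lie between 0.747 and 0.951.

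SUC1 held 64.5, 67.9 and 58.3 CPM in 35S GPT2, below the 108, 81.9 and 86.6 CPM of Col-0 set 2, with no overlap. Its log2 fold change of -0.53 (SE 0.16) did not pass (edgeR adjusted p = 0.143). A fit that blocks on sample number gave -0.53 and passed (edgeR adjusted p = 0.0419). SWEET17 lay in the opposite direction. It held 46.3, 58.7 and 42.4 CPM against 15.04, 35.7 and 33.8 CPM, again with no overlap, and did not pass (0.76, 95% interval 0.14 to 1.39, edgeR adjusted p = 0.255; 0.48 without replicate 1 of Col-0 set 2).

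The other members were not told apart from Col-0 set 2. STP13 held 38.5, 39.8 and 44.6 CPM against 51.5, 40.7 and 46.4 CPM (log2 fold change -0.17, 95% interval -0.53 to 0.20). STP1 held 307, 206 and 284 CPM against 281, 206 and 238 CPM (0.14, interval -0.29 to 0.56). For SUC2 the values were 349, 252 and 316 CPM against 464, 244 and 295 CPM (-0.13, interval -0.65 to 0.40; 0.17 without replicate 1 of Col-0 set 2). The spread within the wild type was wide for SUC2, and wider still for SWEET13, which held 2.86, 3.73 and 2.28 CPM against 1.40, 4.17 and 6.85 CPM (-0.58, interval -1.79 to 0.63).

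SWEET4 and SWEET16 had too few counts to be tested in trial 2. SWEET4 had 16, 5 and 9 raw counts in 35S GPT2, or 1.43, 1.24 and 0.76 CPM, and 0, 9 and 17 raw counts in Col-0 set 2, or 0, 0.569 and 0.537 CPM. These did not overlap, but the count of 0 in replicate 1 of Col-0 set 2 allows up to 0.571 CPM at that depth. SWEET16 had 12, 4 and 1 raw counts against 0, 10 and 18, and the groups overlapped.

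The summed level of the 5 markers of xylem and fibre walls was 3006 to 4317 CPM in 35S GPT2 and 2015 to 2295 CPM in Col-0 set 2. XCP1 and XCP2, proteases of xylem vessels, passed the test (log2 fold change 1.33 and 1.14, edgeR adjusted p = 0.0334 and 0.00502). CESA4, CESA7 and CESA8 did not (0.73, 0.74 and 0.87, edgeR adjusted p = 0.0664, 0.0653 and 0.186). None of the 6 phloem markers passed, and their sum was 313 to 422 CPM against 398 to 443 CPM. Neither epidermis marker passed, and their sum was 846 to 951 CPM against 975 to 1160 CPM. Neither marker of green cortex passed. The part of these tissues in the fall of SWEET11 was not tested.

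The effects of both GPT2 lines were compared in 1 fit of all 15 samples, each against its own Col-0 set. Of the 10 members 1 was higher and 3 were lower in the 35S GPT2 effect, where 9.32% of 20645 genes were higher and 13% lower. SWEET11 differed by -2.39 on the log2 scale (SE 0.16, edgeR adjusted p = 3.65e-08). SWEET4 differed by 2.35 (SE 0.61, edgeR adjusted p = 0.00976), but its trial 2 counts of 0 to 17 were too low for a test there. With no filter its effect in 35S GPT2 alone was 1.39 and did not pass (edgeR adjusted p = 0.641). SUC1 differed by -0.53 (SE 0.14, edgeR adjusted p = 0.0106) and STP13 by -0.48 (SE 0.13, edgeR adjusted p = 0.0134). The 35S GPT2 effect alone had larger SEs, 0.199 for SWEET11, 0.162 for SUC1 and 0.165 for STP13. The fit of 15 samples estimates 1 spread per gene over both trials. Replicates correlated at 0.946 to 0.980 across genes in trial 2 and at 0.997 to 0.998 in trial 1. The SEs and p-values of this fit may thus be too small. For SWEET12 the difference was -0.035 (95% interval -0.41 to 0.34). SWEET17 missed the threshold (0.52, edgeR adjusted p = 0.173) and passed when blocked on sample number (0.57, edgeR adjusted p = 0.0461). With library totals alone the median of all genes moved from -0.038 to 0.19, rises made up 66.7% in place of 41.8% of all calls, and SUC1 (-0.28) and STP13 (-0.25) no longer passed. STP13 also missed the threshold without Col-0 set 1 replicate 1 (-0.45, edgeR adjusted p = 0.0547).

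The rest of the sugar transporter families was followed in lists chosen by family, apart from the members. Their counts stand against 29.2% of all genes that rose and 26.5% that fell in HCT-RNAi, and 27.4% and 25.8% in the libraries labelled gpt2-1. Of 11 other SWEET genes, 3 were tested in HCT-RNAi, and SWEET15, a gene known for its rise in senescing leaves, went from 1, 2 and 1 raw counts in Col-0 set 1 to 262, 307 and 287 (log2 fold change 7.40, SE 0.27, edgeR adjusted p = 3.58e-19). It stood at 2, 3 and 2 raw counts in the libraries labelled gpt2-1, at 0 to 5 in Col-0 set 2 and at 0 in all libraries of 35S GPT2. SWEET2, a glucose transporter of the vacuole, fell (-0.44, SE 0.09, edgeR adjusted p = 7.47e-05). Of the 7 other SUC genes 2 were tested, and SUC3 rose (0.23, edgeR adjusted p = 0.000508). Of 12 other STP genes 9 were tested, of which 4 fell and none rose, among them STP7 (-0.33), STP14 (-0.48) and STP9 (-2.55, from 13 to 18 raw counts to 0 to 6). STP9 is known from pollen, and the pollen marker VGD1 fell as well (-0.47, edgeR adjusted p = 0.00367), whose part was not tested.

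In the libraries labelled gpt2-1, SUC3 rose 2.55-fold, from 37.6 ± 0.805 to 95.7 ± 3.81 CPM (SD, n = 3; log2 fold change 1.35, SE 0.05, edgeR adjusted p = 3.75e-19). SUC4, of the vacuole, rose by 0.26 (edgeR adjusted p = 0.0191), which was 0.038 and not past the threshold with library totals alone. SWEET1 rose (0.72, edgeR adjusted p = 1.13e-05), and SWEET2 rose by 0.20 (edgeR adjusted p = 0.0428) but was -0.023 with library totals alone. Of the 9 other STP genes tested, 3 rose and 2 fell, with STP11 (1.23) and STP9 (1.54) the largest rises and STP7 falling (-0.34). With library totals alone 2 of them rose and 5 fell. STP11 is likewise known from pollen, and VGD1 rose in the same libraries (1.70, edgeR adjusted p = 9.38e-14). Its summed level was 19.6 to 22.7 CPM against 5.61 to 8.31 CPM in Col-0 set 1, and its part in these rises was not tested.

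Of 11 transporters of the vacuole and their relatives tested, 2 rose and 5 fell in HCT-RNAi: TMT2, which loads hexoses into the vacuole, rose (0.44, edgeR adjusted p = 6.02e-09), while its relative TMT1 fell (-0.49, edgeR adjusted p = 6.2e-09). TMT3 went from 14 to 26 raw counts to 0 to 2 and also passed (edgeR adjusted p = 3.44e-08). Exons on the opposite strand cover 13.1% of the exon bases of TMT2 and 8.56% of those of TMT1. The part of this overlap in the rise of TMT2 and the fall of TMT1 was not tested. In the libraries labelled gpt2-1, 3 rose and 3 fell, with library totals alone 2 and 8. ERD6, of a family that exports monosaccharides from the vacuole, rose from 343 ± 10.4 to 767 ± 36.3 CPM (1.16, SE 0.04, edgeR adjusted p = 4.48e-19), and ERDL6, a glucose exporter, from 101 ± 4.94 to 197 ± 5.80 CPM (0.96, SE 0.05, edgeR adjusted p = 1.09e-16). TMT1 fell (-0.68, edgeR adjusted p = 1.44e-11).

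Of 12 enzymes that split sucrose, 4 rose and 3 fell in HCT-RNAi, shares close to those of all genes. The sucrose synthase SUS3 went from 1.83 ± 0.217 to 7.45 ± 0.761 CPM (2.03, SE 0.14, edgeR adjusted p = 1.28e-12). The cell wall invertase CWINV1 fell from 17.8 ± 1.85 to 7.76 ± 0.769 CPM (-1.21, SE 0.09, edgeR adjusted p = 1.01e-11), and the vacuolar invertase VI2 rose (0.41, edgeR adjusted p = 4.66e-08). For the libraries labelled gpt2-1 5 rose and 4 fell, with VI2 up 2.22-fold, from 258 ± 18.9 to 572 ± 9.66 CPM (1.15, SE 0.05, edgeR adjusted p = 9.26e-18). AT1G62660 rose there (0.57, edgeR adjusted p = 3.16e-07) and SUS1 fell (-0.80, edgeR adjusted p = 2.34e-12). Sucrose phosphate synthases make sucrose in the cytosol, and 3 of the 4 rose in HCT-RNAi: SPS4F (0.66, edgeR adjusted p = 3.09e-09), SPS1F (0.37, edgeR adjusted p = 9.57e-08) and SPS3F (0.62, edgeR adjusted p = 0.0292). Among the libraries labelled gpt2-1, SPS1F (-0.36, edgeR adjusted p = 2.12e-07) and SPS2F (-0.25, edgeR adjusted p = 0.0173) fell. The other 2 rose there, among them SPS4F (0.22, edgeR adjusted p = 0.011), and with library totals alone none of the 4 rose.

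Few of these genes passed in 35S GPT2. VI2 fell, from 147 ± 32.6 to 70.9 ± 11.2 CPM (log2 fold change -1.05, SE 0.20, edgeR adjusted p = 0.0193), as did SPS4F (-0.81, SE 0.17, edgeR adjusted p = 0.0336) and STP14 (-1.14, SE 0.26, edgeR adjusted p = 0.047), a galactose transporter. The call on VI2 was lost without any one of the 3 libraries of 35S GPT2 (-1.20 to -0.96). Calls on SPS4F (-0.88 to -0.68) and STP14 (-1.20 to -1.09) were lost without any of these, without replicate 2 or 3 of Col-0 set 2, and with library totals alone. No gene of the other lists passed there, which were 3 other SWEET genes, 2 other SUC genes and 10 vacuolar and related transporters tested.

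**Figure D5:**
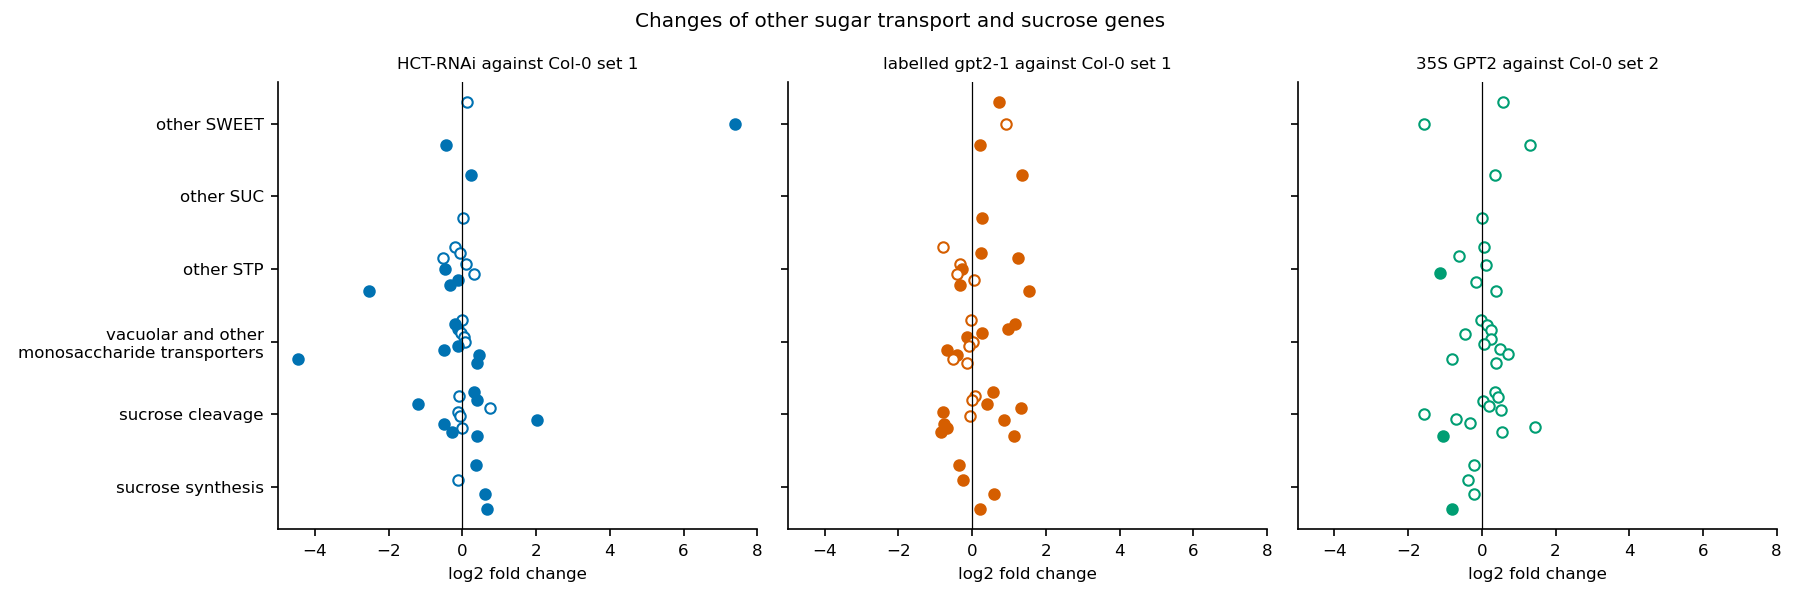
Log2 fold change of every tested gene of 6 lists in 3 comparisons; filled points passed the test (edgeR, adjusted p under 0.05), and height within a list only parts the points. SWEET15 is the point at 7.40 in HCT-RNAi and TMT3 the lowest point there, while 3 genes are filled in 35S GPT2.

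Genes whose pattern was most like each member were sought over the 9 trial 1 samples by Pearson correlation of log2(CPM + 1), among about 10270 genes with at least 5 CPM on average and no opposite-strand overlap. The samples form 3 groups, so a high r mostly needs the same order of group levels, and r over the 6 trial 2 samples is given as a description beside it. STP13 was followed by GPX5 (r = 0.994 in trial 1 and 0.661 in trial 2). SWEET17 was followed by GLX2-4 (0.973 and 0.813) and AT4G12710 (0.973 and 0.456), and SWEET4 by XPL1 (0.992 and 0.563) and AT1G61790 (0.992 and 0.614). For the remaining members r in trial 2 was at most 0.233, and no r over these 6 samples was tested. SWEET11 was closest to DAL1 (0.993 and -0.256) and AT3G19740 (0.991 and 0.233), and SWEET12 to MEE50 (0.977 and -0.0172) and AT4G00290 (0.976 and -0.183). STP1 was closest to UNE10 (0.993 and 0.159) and AT1G27750 (0.993 and 0.0715), SUC1 to AT4G28370 (0.958 and 0.114) and ARFB1B (0.956 and -0.512), and SUC2 to AT2G32295 (0.964 and -0.749) and AT1G27850 (0.958 and -0.0212). SWEET13 was closest to SBP1 (0.969 and -0.484) and AK-HSDH II (0.955 and -0.207), and SWEET16 to AT1G49490 (0.98 and -0.838) and SVL2 (0.977 and -0.165).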

How the data were processed

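The authors deposited raw counts per gene for 15 stem samples, each table shared by 4 records and used once. The submitters' processing notes name STAR, DESeq2 and TAIR10 without a role, and the counting tool is not given in the sources used here. Rows with no locus name (219 of 38186 rows, 0.000322 to 0.00117% of counts) were left out. In 5 trial 2 tables the values, read by their own row labels, had a Spearman correlation with Col-0 set 1 of 0.101 to 0.112 across genes, and of 0.884 to 0.925 in the row order of the first 35S GPT2 table, which was used. As deposited, the GPT2 row of Col-0 set 2 held the same 3 counts as Col-0 set 1. In the new order these fall on AT1G64190, which was left out of trial 2. Counts were tested with edgeR 4.0.16 in R 4.3.3 (TMM, filterByExpr, quasi-likelihood F test, Benjamini-Hochberg adjusted p under 0.05, no fold minimum), in fits of 9, 6 and all 15 samples. The tests were also run on simulated data. Sequences were read with Python 3.11.15 and biopython 1.88 from RefSeq TAIR10.1. DESeq2 1.42.0, other scalings, no filter, a block, fewer groups, genes without opposite-strand overlap, the labels as deposited and leaving out each library were alternatives. In trial 2, same-numbered deviations correlated at 0.155, 0.368 and 0.246, a pairing read from the data and not from the labels. The main tests did not use this pairing, and a block on sample number was only an alternative. With the block 1103 genes passed in 35S GPT2, against 462 in the main test. The design speaks of biological replicates without naming the plants behind each, so p-values measure the spread between these samples. The 10 members and all lists were chosen with earlier results of these data known. All members are named, with at most 3 genes per other list and comparison (smallest p of those that passed) and the 2 most alike genes per member, of which 1 is not reported here. The 95% intervals come from the edgeR fits and hold the spread between samples, while the limit given for a count of 0 covers counting error only.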

Additional observations from a re-analysis of the deposited data

Results flagged for a closer look

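In 4 members the effect in 35S GPT2 differed from that in the libraries labelled gpt2-1 by the interaction test over 15 samples (edgeR). The difference in log2 fold change was 2.35 for SWEET4, -2.39 for SWEET11, -0.53 for SUC1 and -0.48 for STP13. Without replicate 1 of Col-0 set 2, which stood apart from its group, the values were 2.14, -2.46, -0.42 and -0.41, each past the threshold. With library totals alone SUC1 and STP13 no longer passed, and STP13 also missed the threshold without Col-0 set 1 replicate 1. For SWEET11, SUC1 and STP13 the SE of this difference was smaller than that of the 35S GPT2 effect alone. The p-values of this test may thus be too small. The libraries labelled gpt2-1 hold high GPT2, against their label, and each line was set against the wild type of its own trial. The value for SWEET4 rests on 0 to 17 counts per library in trial 2, too few for a test there, where its effect in 35S GPT2 with no filter did not pass (1.39, edgeR adjusted p = 0.641).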

How the results depend on the processing

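With library totals alone, 5 members passed in the libraries labelled gpt2-1 (8 in the main test) and 2 in the interaction (4), and signs turned for SWEET17 (-0.088), STP1 (-0.053) and SWEET2 (-0.023) in the former. The same scaling turned SWEET17 (0.054), SUC1 (0.0597) and SUC2 (0.20) in HCT-RNAi minus gpt2-1, and SWEET12 (0.21) and STP1 (0.16) in the interaction. The TMM factors of the libraries labelled gpt2-1 were 0.9007 to 0.9064, against 1.043 to 1.074 in the rest of trial 1. With the replicate block 2 members passed in 35S GPT2 in place of 1, and the interaction of SWEET17 passed. In trial 1 the numbers did not pair the samples (correlations of -0.0758 to 0.0281), and the block gave 8, 8 and 9 members, as without it. With the trial 2 labels as deposited 0 members passed in 35S GPT2 and 0 in the interaction. Signs then turned in 35S GPT2 for SWEET13 (0.53), SUC1 (0.96), SUC2 (6.33) and VI2 (3.03), and in the interaction for SWEET11 (8.72), SWEET12 (11.1), SWEET13 (0.97), SWEET16 (4.87), SUC1 (1.15), STP1 (6.34) and STP13 (10.6), since those values belong to other genes. On genes without opposite-strand overlap, SWEET17 in HCT-RNAi (0.013) and SUC2 in HCT-RNAi minus gpt2-1 (0.022) turned, as did the interaction of SUC2 in DESeq2 (-0.0059). Leaving out each library gave 7 to 9 members in HCT-RNAi, 7 to 9 in gpt2-1, 9 in their difference, 1 in 35S GPT2 and 3 to 4 in the interaction. Values that then crossed 0, none past the threshold in the main test, were SWEET17 in HCT-RNAi (-0.0405 to 0.00346), SUC2 in HCT-RNAi minus gpt2-1 (-0.048 to 0.019) and in 35S GPT2 (-0.31 to 0.17), and in the interaction SUC2 (-0.14 to 0.34), SWEET12 (-0.20 to 0.089), STP1 (-0.19 to 0.082), SWEET13 (-0.69 to 0.21) and SWEET16 (-1.60 to 0.047). Apart from scaling, block and row order, the cause of these changes was not tested. Depth limited SWEET4 and SWEET16 in trial 2.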
